A study of Mus musculus with 6 samples.

Results

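The RNA make-up of control MC3T3-E1 cells was described from 3 libraries of a series of 6. MC3T3-E1 is an established osteoblastic cell line from mouse calvaria. The 3 libraries are those whose titles name the control line, replicates 1 to 3. The cells had reached confluence and were then kept for 2 days in medium that promotes osteoblast differentiation. The labels give no genotype, vector or clone for this control line, nor whether each replicate had its own culture, so the spread between them may be technical. The other 3 libraries, labelled as edited with CRISPR in Rorβ, enter no value below. All rows of the deposited gene table were ranked by their mean value over the 3 libraries, without the rows Yam1, AY036118 and Lars2.

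Osteoblasts build bone by secreting a matrix made mainly of type I collagen, a helix of α1 chains from Col1a1 and an α2 chain from Col1a2, in which the α1 chain is the more abundant. The transcription factors RUNX2 and SP7 (osterix) commit mesenchymal cells to this fate. Mineral is later laid down in the matrix with the help of tissue-nonspecific alkaline phosphatase (Alpl), which breaks down the mineralization inhibitor pyrophosphate, and cells that become enclosed in bone turn into osteocytes. In culture, a confluent layer makes collagen early and mineral late.

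A value here is a CPM (reads per 1000000) of a library size that the authors had scaled with trimmed-mean (TMM) factors. The libraries held 42603315, 40772380 and 41896283 reads in rows of the table. Yam1, AY036118 and Lars2 took 25.4%, 17.9% and 16.9% of them, so replicate 1 was left with 31789054 reads, replicate 2 with 33455042 and replicate 3 with 34816234. Shares below are of these remaining reads, and errors are SDs over n = 3 libraries. Pearson's r of log2 values over rows was 0.998, 0.997 and 0.997 for the pairs of libraries. Read counts differed between libraries by more than sampling noise. The chi-square per degree of freedom was 3.02 (replicates 1 and 2), 6.09 (1 and 3) and 4.80 (2 and 3). It is summed over rows, so a few very uneven rows can raise it. Among them were Tmem158 (31035, 21681 and 237 reads) and Mir2137 (0, 0 and 14083 reads). The chi-square therefore does not show how widely over the genes the libraries differed. Because a long transcript gives more reads than a short one, levels of different genes are also given per kb, with the length of all annotated exons of the gene in GENCODE M21 unless another length is named.

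All 6 genes given as marks of these cells were present in every library. Col1a1 and Col1a2 had mean values of 35509 ± 1018 and 30527 ± 339, and Sparc, which encodes the collagen-binding glycoprotein osteonectin, 6748 ± 113. Runx2 had 224 ± 6.57 and Sp7 98.96 ± 1.19. Alpl was the lowest, at 11.2, 10.4 and 10.9 (mean 10.9 ± 0.387, from 1257 reads in all). Per kb of exon the order was Col1a1 (5410), Col1a2 (2457), Sparc (1781), Sp7 (29.1), Runx2 (25.4) and Alpl (2.69). On both scales the collagens and Sparc stood far above the lineage factors, and Alpl stood below every other one of the 6.

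The ranking was led by matrix genes. Col1a1, with values of 36008, 36181 and 34337, took 4.11% ± 0.111 of the reads. Col1a2 followed with 30762, 30680 and 30139. Col3a1, the chain of type III collagen that forms mixed fibrils with type I, had 13105, 13397 and 13250. Sparc came next with 6630, 6856 and 6756. Col1a1 and Col1a2 together held 7.65% ± 0.147 of the reads left without Yam1, AY036118 and Lars2, and the first 4 rows 9.96% ± 0.139. Behind them came Npnt (4239 ± 64.1), which encodes the integrin ligand nephronectin, Fn1 (3890 ± 64.4), which encodes fibronectin, and Postn (3541 ± 66.2), which encodes periostin. Of the 25 highest rows, 12 were on the matrix lists and 8 of these were collagens. The other collagens were the type VI chains Col6a3, Col6a1 and Col6a2 (3182, 2261 and 2001), whose protein forms beaded filaments around cells, and the type V chains Col5a2 and Col5a1 (2713 and 1857), which help to set the width of type I fibrils. The remaining 10 genes and the 3 pseudogene rows described below made up the rest. Eef1a1 (3323) and Eef2 (3073) encode elongation factors of translation. Vim (3040), Tpm1 (2515), Actb (1668) and Cald1 (1524) encode vimentin, tropomyosin, β-actin and caldesmon of the cytoskeleton. Scd2 (1955) encodes a fatty acid desaturase, Nedd4 (1661) a ubiquitin ligase, Mmp2 (1612) a gelatinase and Fth1 (1575) the ferritin heavy chain.

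**Figure D1:**
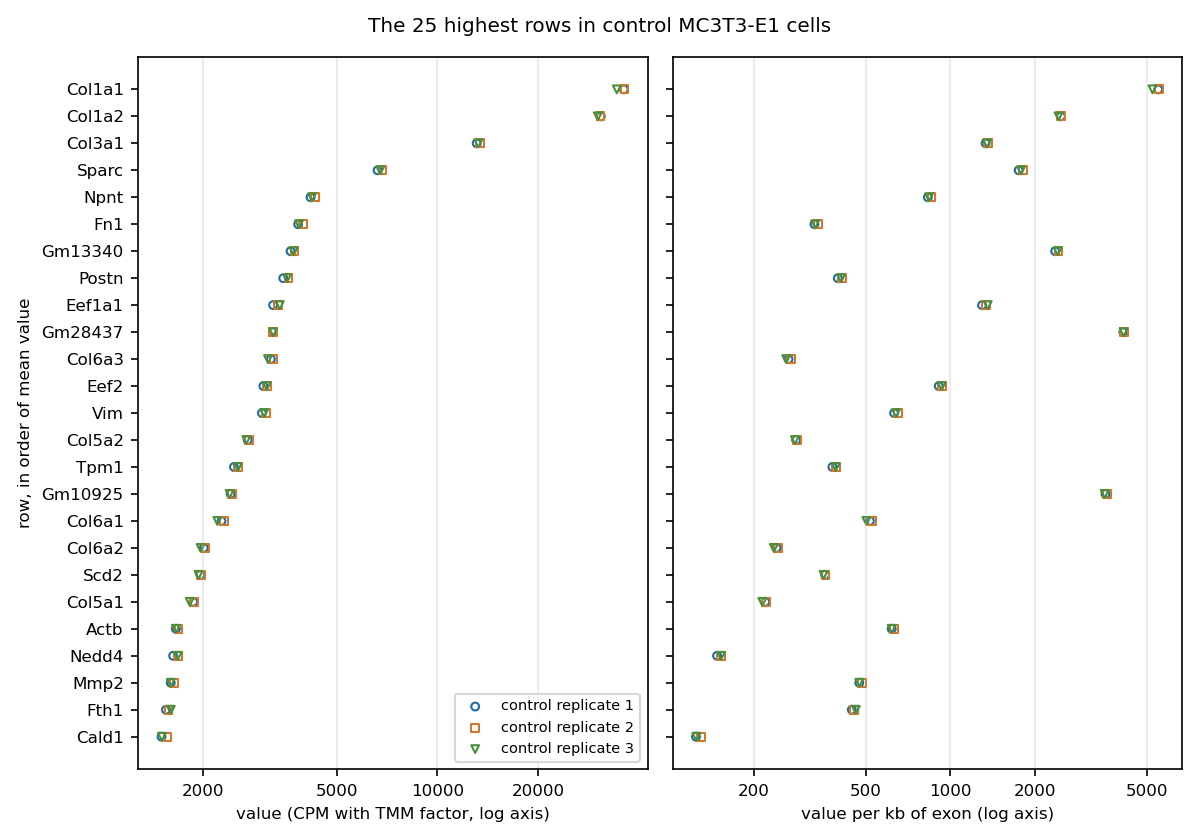
Values of the 25 highest rows in each control library, as CPM with TMM factor (left) and per kb of exon (right), both on log axes, with 1 symbol per replicate. The 3 symbols of a row nearly coincide: their CV lies between 0.166% and 2.87%. Rows stand in the order of mean value in both panels. On the right the short rows Gm28437 and Gm10925 lie near the high end of the axis.

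The same 25 rows came first in each of the 3 libraries. The first 6 stood in the same order in all 3, and the first 10 in 2 of them. Length changed the list more than the library did. Ranked per kb of exon, 10 of the 25 stayed in, namely Col1a1, Col1a2, Col3a1, Sparc, Npnt, Eef1a1, Eef2, Gm13340, Gm28437 and Gm10925. The rows that came in were short: Lgals1 (galectin-1) at 1259 per kb, the ribosomal protein genes Rpl32 (1055) and Rps15 (843), S100a4 (867), Gm20721 (784), 5 more pseudogene rows and 5 rows of annotated microRNAs (Mir6236, Gm26377, Gm23935, Mir2137 and Mir5114). Mir2137 had reads in replicate 3 only (0, 0 and 5281 per kb). Among protein-coding genes alone, 9 of the 25 highest per kb were matrix genes and 7 ribosomal protein genes.

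The balance of the type I chains depended on the length used. The ratio of Col1a1 to Col1a2 was 1.17, 1.18 and 1.14 in the 3 libraries on the CPM scale (mean 1.16 ± 0.021). Per kb of exon it was 2.20 ± 0.040, since all annotated exons add up to 6.563 kb for Col1a1 and 12.426 kb for Col1a2. Per kb of coding sequence (4.359 and 4.116 kb) it was 1.10 ± 0.020, and per kb of the principal annotated transcript (5.93 and 5.348 kb) 1.05 ± 0.019. The libraries agree within 0.021 (SD) on the CPM scale, so the choice of length moved this ratio far more than the replicates did. Col1a1 stood above Col3a1 by every length, by 4.01 ± 0.120 per kb of exon and 2.51 ± 0.075 per kb of the principal transcript.

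Pseudogene rows among the 25 highest carried the sequence of mitochondrial genes. Gm13340, on chromosome 2, had values of 3646, 3748 and 3724. Its transcript in GENCODE M21 aligned to mt-Co1, the gene of cytochrome c oxidase subunit I, over all 1545 bases with 37 mismatches (97.6% identity). Gm28437, on chromosome 1, had 3227, 3238 and 3234 and was identical to mt-Co3 over its 783 bases. The stretches below, from base 24 of Gm13340 and of mt-Co1 and from base 1 of Gm28437 and of mt-Co3, are shown because the stretches of the second pair cannot be told apart, while those of the first pair differ at a few bases. Capitals mark the bases at which the members of a pair differ.
Gm13340: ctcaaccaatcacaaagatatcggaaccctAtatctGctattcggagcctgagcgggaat
mt-Co1: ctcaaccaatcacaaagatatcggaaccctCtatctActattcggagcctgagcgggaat
Gm28437: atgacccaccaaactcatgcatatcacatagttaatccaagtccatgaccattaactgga
mt-Co3: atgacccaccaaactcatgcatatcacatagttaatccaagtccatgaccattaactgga

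The third such row, Gm10925 (2418 ± 21.5), was identical to mt-Atp6 over its 678 bases. Of 16 pseudogene rows with a mean value of at least 100, 10 matched a mitochondrial gene at 95% identity or more over at least 90% of their length, 5 of them without a mismatch. Together they matched 9 different mitochondrial genes and took 1.58% ± 0.0073 of the reads. The table's own 37 mitochondrial rows had no read in any library. Whether the reads in the pseudogene rows came from mitochondrial RNA was not tested, and a mitochondrial share is therefore not given.

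The RNA pool was concentrated in few rows. The 104 highest rows held 25% of the reads, 876 held 50% (875, 868 and 883 when each library was ranked by itself), 3028 held 75% and 5920 held 90%. Of 43343 rows, 13089 (30.2%) were present, meaning a value of at least 1 in every library. No read fell in 19894 (45.9%), and 10360 lay between. The median value of a present row was 26.04. A mean value of 1000 or more was reached by 53 rows, 100 to 1000 by 1758, 10 to 100 by 7648 and 1 to 10 by 3899. Protein-coding genes made up 11192 of the present rows and 94.9% of the reads, and 52.3% of the 21396 protein-coding rows were present. For a row without reads, the limit that a count of 0 allows is 3 reads per library, or a value of 0.0812, 0.0779 and 0.0742 in replicates 1 to 3. This limit covers counting error only.

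The genes of the matrix lists, 151 in number, held 15.6%, 15.7% and 15.3% of the reads (mean 15.5% ± 0.175). Collagens alone held 11.4% ± 0.170, matrix glycoproteins 3.23% ± 0.028 and matrix proteoglycans 0.873% ± 0.0077. With Yam1, AY036118 and Lars2 kept in the total the share was 12.4%. Taken per kb of exon it was 7.99% and per kb of the principal transcript 9.998%, the exons of Col1a1, Col1a2 and Col3a1 adding up to 6.563, 12.426 and 9.816 kb. Ribosomal proteins held 2.49% ± 0.037 of the reads, a list of cytoskeleton genes 2.79% ± 0.015, translation factors 1.69% ± 0.018 and genes of the secretory pathway 1.04% ± 0.0058. Per kb of exon, ribosomal proteins made up 5.47% and the cytoskeleton list 3.29%, so the order of matrix, cytoskeleton and ribosomal proteins by share of reads was not their order per length. How reads shared by near-identical copies of a gene were counted is not given. The shares of ribosomal proteins and of the cytoskeleton list are uncertain to that degree.

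**Figure D2:**
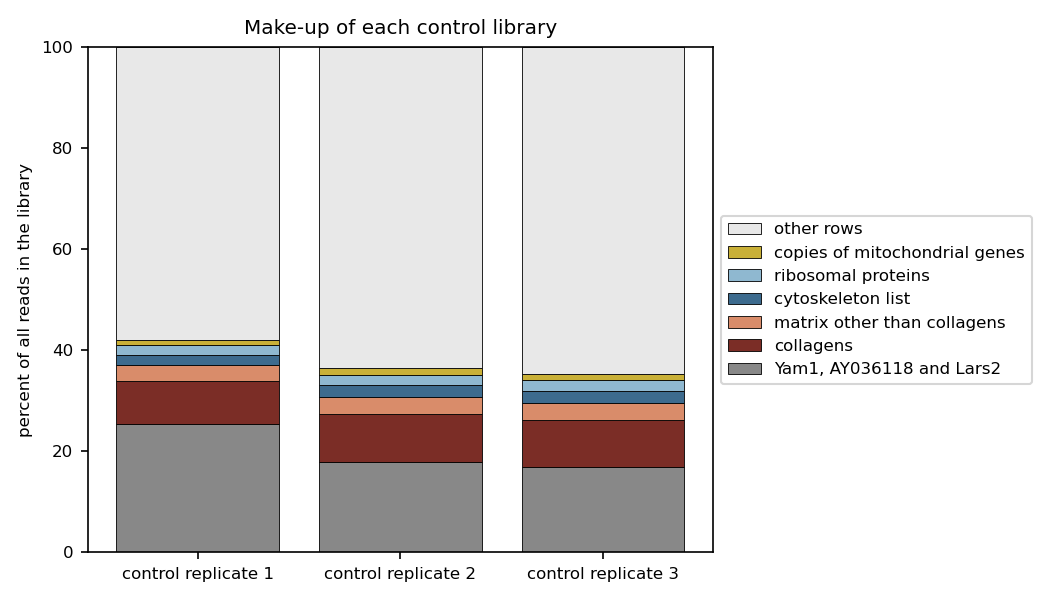
Make-up of the 3 control libraries as stacked bars, in percent of all reads including Yam1, AY036118 and Lars2. The grey block at the base is larger in replicate 1 (25.4%) than in replicates 2 and 3 (17.9% and 16.9%), and the collagen block above it is larger than each named class above it in every library, at 8.63%, 9.46% and 9.35%.

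Present rows made up 100 of the 151 matrix genes, while 40 lay below and 11 had no read, a share present of 66.2% against 30.2% among all rows and 52.3% among protein-coding rows. Among collagens 28 of 44 were present. Below the chains already named stood Col12a1 (1493 ± 14.2) and Col16a1 (846 ± 12.04), whose products bind fibril surfaces, Col11a1 (1239 ± 32.3), a minor fibril chain of cartilage and bone, and Col8a1 (1171 ± 18.2), a short network-forming chain. The basement membrane chains Col4a1 and Col4a2 had 602 ± 10.4 and 377 ± 14.03. Col10a1, the collagen of hypertrophic cartilage, and Col6a6 had no read. Col9a1, Col9a2, Col9a3 and Col14a1 lay below 1 in mean value.

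Glycoproteins of the matrix were present for 57 of 83 genes (68.7%, against 52.3% of protein-coding rows). After Sparc, Npnt, Fn1 and Postn the highest was Pcolce (851 ± 22.7), whose product helps to trim the end of procollagen. Nid2 (491 ± 5.55) encodes nidogen-2, while its relative Nid1 had no read. Efemp1, Thbs4, Lama3, Matn1 and the dentin gene Dspp had none either. Proteoglycans were present for 15 of 24 genes (62.5%, against the same 52.3%). The small leucine-rich family led them, with Aspn (1417 ± 31.5), Fmod (1349 ± 23.8), Lum (1221 ± 27.3), Bgn (1112 ± 21.4) and Dcn (852 ± 7.50), which encode asporin, fibromodulin, lumican, biglycan and decorin. Per kb of exon these were 602, 408, 499, 182 and 146, and per kb of the principal transcript 609, 432, 499, 460 and 484, so their order depended on the length used. Acan, which encodes the aggrecan of cartilage, had no read, nor did Spock1 and Spock3.

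**Figure D3:**
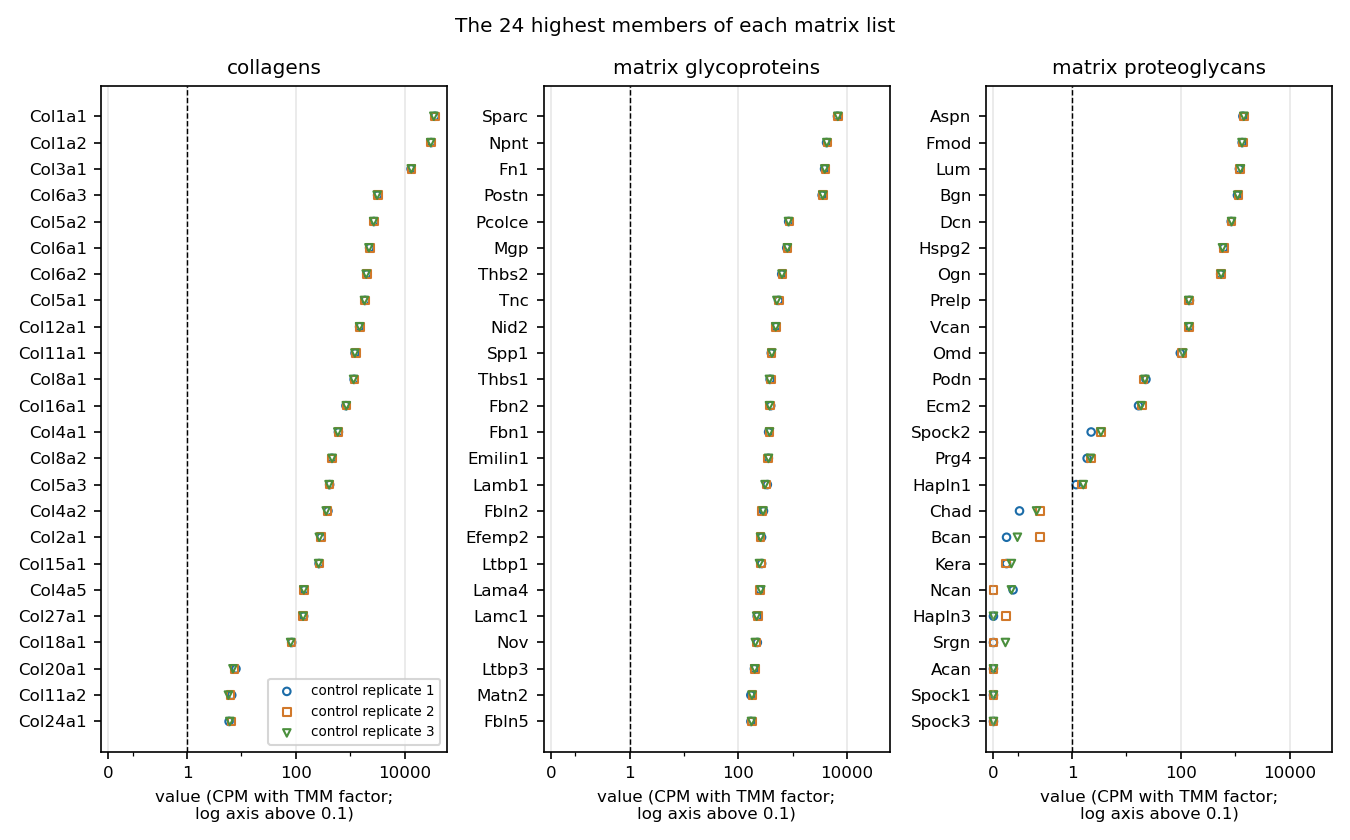
Values in each control library of the 24 highest members of the collagen, glycoprotein and proteoglycan lists, as CPM with TMM factor (log axis above 0.1); the dashed line marks a value of 1. Collagens run from 35509 down to below 10 within these 24, all glycoproteins shown stay above 100, and the proteoglycans drop from 1417 to 0.

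The machinery that folds, modifies and links collagen was present in 25 of 26 genes (96.2%, against 52.3% of protein-coding rows). Serpinh1 had values of 1476, 1488 and 1468 and encodes HSP47, the chaperone of procollagen. P4hb (1077 ± 16.1) encodes a subunit of prolyl 4-hydroxylase. Lox (771 ± 11.9) encodes the lysyl oxidase that starts the cross-linking of collagen outside the cell. Fkbp10 (465 ± 8.05) encodes a prolyl isomerase of the endoplasmic reticulum and Adamts2 (283 ± 7.23) a protease that removes the amino-terminal propeptide. The one member below the threshold was Loxl2, at a mean value of 0.395. All 27 genes of the secretory pathway list were present, led by the chaperone genes Hsp90b1 (883 ± 1.32) and Calr (601 ± 14.6) and the disulfide isomerase gene Pdia3 (694 ± 8.43), with a list median of 280.

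Genes of mineralization were present in 16 of 19 cases (84.2%, against 52.3% of protein-coding rows), at a list median of 33.5. The highest were Mgp (792 ± 14.6), whose product restrains calcification, and the annexin genes Anxa6 (708 ± 4.86), Anxa2 (673 ± 11.8) and Anxa5 (390 ± 7.70), whose products are found in matrix vesicles. Spp1 (osteopontin) had 403, 408 and 413, and Ibsp (bone sialoprotein) 124, 130 and 131. Of the enzymes that supply phosphate or form matrix vesicles, Phospho1 had 52.8 ± 3.18 and Smpd3 30.8 ± 1.34, both above Alpl per kb of exon (26.001 and 5.88 against 2.69). The osteocalcin genes stood low in value: Bglap had 14.5, 15.1 and 18.2, Bglap2 8.17, 11.3 and 10.6, and Bglap3 2.22, 2.05 and 2.15. These copies are nearly identical in sequence, and how reads shared by such copies were counted is not given in the sources used here, so the split of reads between them is uncertain. Ifitm5, a gene of mineralizing osteoblasts, had a mean value of 0.236, Enpp1, whose product makes pyrophosphate, 0.862, and Ahsg, which encodes the liver protein fetuin-A, no read.

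Of 10 osteocyte genes 5 were present, 2 lay below and 3 had no read. The share present, 50%, was close to the 52.3% of protein-coding rows, of which 29.1% had no read. Sost, which encodes the Wnt inhibitor sclerostin, Fgf23, the phosphate-regulating hormone gene, and Npy had no read in any library. Mepe had 31 reads in all and Dkk1 2. Dmp1 (2.88 ± 0.0997) and Phex (1.93 ± 0.394) were just above the threshold, Kcnk2, a potassium channel gene, had 4.03 ± 0.285, and Pdpn (60.4 ± 2.72) and Irx5 (61.3 ± 1.87) were well above it. Pdpn, which encodes podoplanin, marks early osteocytes in bone. In bulk RNA, fewer cells of a type and less RNA per cell cannot be told apart, here and for every gene below.

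Regulators of the osteoblast lineage were present in 24 of 26 cases (92.3%, against 52.3% of protein-coding rows), with a list median of 26.6. Prrx1, a homeobox gene of limb and skull mesenchyme, had 896, 882 and 903. Runx2 had 218, 224 and 231, and Cbfb, which encodes its DNA-binding partner, 126, 124 and 130. Sp7 had 97.7, 99.2 and 100.01. The largest CV (SD over mean) among these 4 was 2.93%, that of Runx2. Atf4 (208 ± 0.446), which drives amino acid supply for collagen synthesis, and Creb3l1 (179 ± 3.28), the endoplasmic reticulum stress factor that acts on Col1a1, were also high, as were Prrx2 (154 ± 6.33), a relative of Prrx1, Fosl2 (145 ± 3.19), an AP-1 gene, and the zinc finger gene Zfp521 (142 ± 5.99). Per kb of exon the order was Atf4 (88.2), Prrx1 (80.8), Prrx2 (78.5), Creb3l1 (68.7), Cbfb (36.4), Twist1 (31.0), Snai2 (30.8), Sp7 (29.1) and Runx2 (25.4). Per kb of the principal transcript Prrx1 (181) stood above Atf4 (121), and Runx2 (38.1) and Sp7 (32.0) above Twist1 and Snai2, which kept 31.0 and 30.8.

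In the middle of the list were Snai2 (62.2 ± 0.833) and Twist1 (50.4 ± 1.07), factors of mesenchymal cells. Dlx5 (28.5 ± 2.30) is a homeobox gene induced by BMP, Foxc1 (24.7 ± 1.52) a forkhead gene of the skull, Tcf7 (19.6 ± 0.564) a nuclear factor of the Wnt pathway and Foxo1 (13.1 ± 0.975) a partner of ATF4. Low but present were the homeobox genes Msx1 (5.96 ± 1.11), Dlx6 (3.39 ± 0.364), Msx2 (2.31 ± 0.463) and Dlx3 (2.22 ± 0.103). The same held for Lef1 (5.15 ± 0.152), a nuclear factor of the Wnt pathway, the AP-1 gene Fosl1 (2.74 ± 0.299), the forkhead gene Foxc2 (2.02 ± 0.364) and Twist2 (1.39 ± 0.146). The Notch target Hey1 lay below the threshold, with 4, 4 and 6 reads, and Zbtb16 had none.

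**Figure D4:**
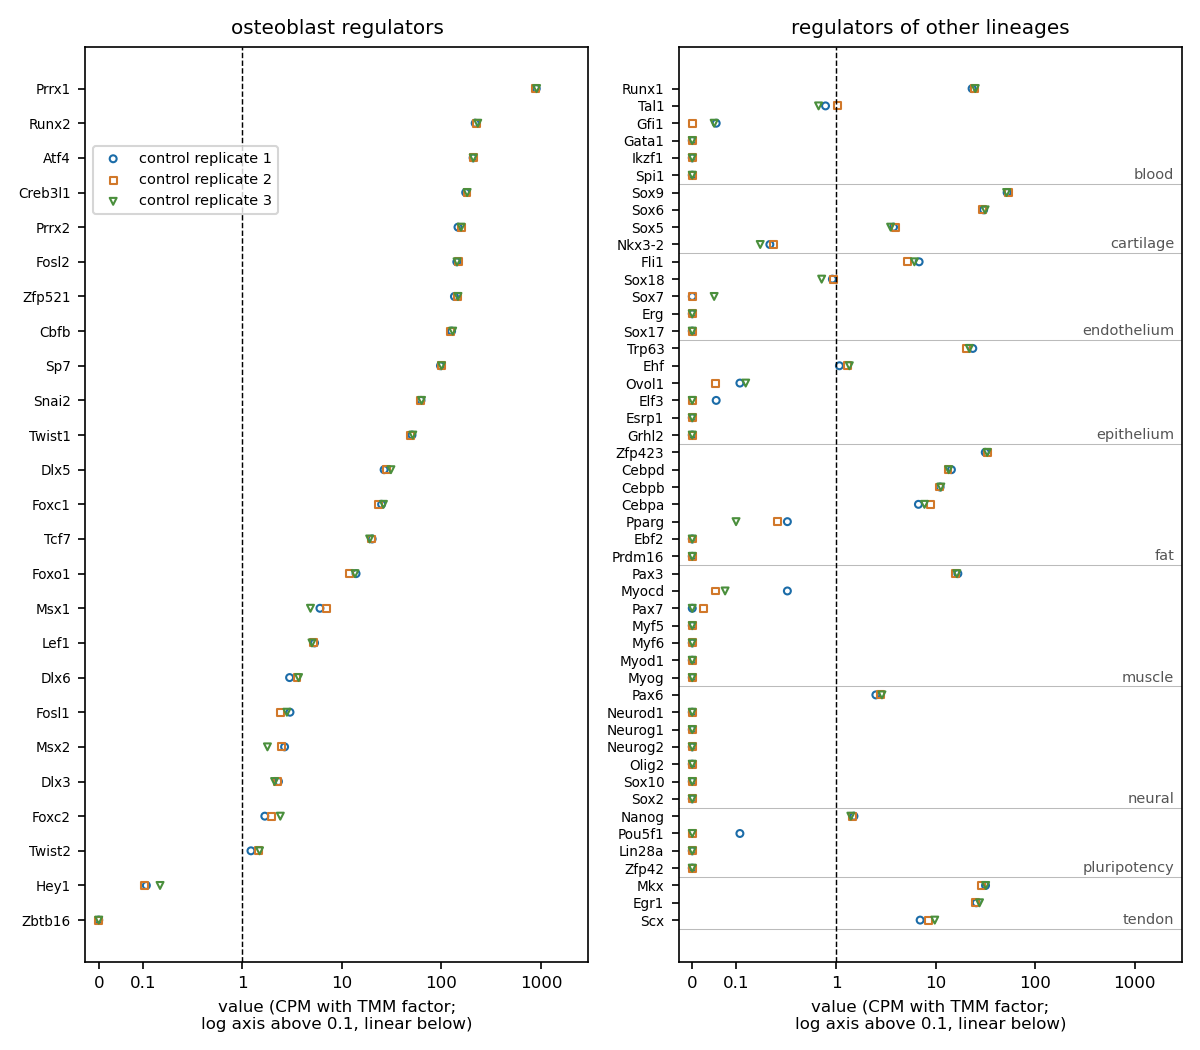
Values in each control library of osteoblast regulators (left) and of regulators of other lineages, grouped by lineage (right), as CPM with TMM factor on a log axis that is linear below 0.1. The dashed line marks the value of 1 that counts as present: 23 of the 25 genes drawn are present on the left panel and 17 of the 49 drawn on the right panel, where 21 have no read.

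Regulators of other lineages were present in 17 of 50 cases, at a list median of 0.0263, and 22 had no read in any library. The share present, 34%, was close to the 30.2% of all rows and below the 52.3% of protein-coding rows. Of all rows 45.9% had no read, and of protein-coding rows 29.1%. By list, 3 of 4 regulators of cartilage, 3 of 3 of tendon and 4 of 7 of fat were present. These are lineages that share a mesenchymal origin with bone. Present in the other lists were 1 of 7 for muscle, 1 of 6 for blood, 1 of 5 for endothelium, 1 of 8 for neural, 2 of 6 for epithelium and 1 of 4 for pluripotency. Of the cartilage trio Sox9 had 52.4, 53.8 and 51.9, Sox6 30.4, 29.6 and 31.5 and Sox5 3.79, 3.998 and 3.54. Nkx3-2 had 24 reads in all. The tendon factors Mkx (30.9 ± 1.73), Egr1 (26.1 ± 1.39) and Scx (8.44 ± 1.41) were all present. Of the fat regulators Zfp423 (32.7 ± 0.904), Cebpd (13.8 ± 0.585), Cebpb (11.1 ± 0.217) and Cebpa (7.82 ± 1.12) were present, but Pparg, the master factor of adipocytes, had 12, 10 and 4 reads (mean value 0.228), and Ebf2 and Prdm16, the brown fat regulators, none.

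The skeletal muscle factors Myod1, Myog, Myf5 and Myf6 had no read, Pax7 had 1 and Myocd, the cofactor of smooth muscle, 17. Pax3, a factor of somites and neural crest, was present at 16.8, 15.9 and 16.4. For blood, Spi1, Gata1 and Ikzf1 had no read and Gfi1 4, Tal1 lay at the threshold (0.785, 1.04 and 0.668), and Runx1, a relative of Runx2 that is also known from skeletal progenitors, had 24.4 ± 0.959. For endothelium, Erg and Sox17 had no read, Sox7 had 2, Sox18 lay below 1 (0.857 ± 0.121), and Fli1 was present at 6.08 ± 0.802.

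Neural regulators were without reads in 7 of 8 cases, among them Neurog1, Neurog2, Neurod1, Olig2, Sox10 and Sox2, and Pax6 had 2.75 ± 0.203. For epithelium, Grhl2 and Esrp1 had no read, Elf3 had 2 and Ovol1 11, while Trp63, a p53 relative of stratified epithelium, had 23.7, 20.3 and 21.9 and Ehf 1.25 ± 0.146. Of the pluripotency genes Zfp42 and Lin28a had no read, Pou5f1 4 reads in 1 library, and Nanog 56, 56 and 57 reads (1.46 ± 0.0525). A read count per gene does not show which transcript the reads came from.

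The share of markers of other differentiated cells that was present differed between lists, beside 30.2% of all rows and 52.3% of protein-coding rows. It was 0% for adipocyte, endothelial and epithelial markers, 12.5% for chondrocyte, 20% for osteoclast and 28.6% for neuron and glia markers. Skeletal muscle markers reached 33.3%, macrophage and blood markers 37.5%, tendon markers 50% and smooth muscle markers 66.7%. No adipocyte marker was present of 7, with Adipoq, Plin1, Cfd and Cidec at 0 reads, and the list summed to 0.595, 0.857 and 0.792. No endothelial marker was present of 6, with Cdh5 and Kdr at 0 reads and a list sum of 1.79, 1.82 and 1.11. The 6 epithelial markers summed to 0.622, 0.571 and 0.421, with Krt8 and Krt18 at 0 reads. Of 8 macrophage and blood markers with a row, 3 were present, namely Lyz2 (14.9 ± 1.57), Csf1r (6.59 ± 0.102) and Cd14 (3.00 ± 0.200), while Emr1, which encodes F4/80, had no read and Ptprc, which encodes the leukocyte antigen CD45, had 1.

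Some lists were split. Col2a1, which encodes the type II collagen of cartilage, had 291, 289 and 270, but no other chondrocyte marker of 8 was present, and Acan, Matn1 and Col10a1 had no read. Ctsk, which encodes the collagen-cleaving cathepsin K, had 161, 163 and 173, while Acp5, Calcr and Dcstamp, which mark osteoclasts, had no read and Oscar had 1. Of the smooth muscle genes, Acta2 stood at 1432, 1461 and 1410, Smtn at 132 ± 1.22, Tagln at 53.1 ± 2.21 and Lmod1 at 33.4 ± 0.785. Myh11 and Cnn1 had means of 0.470 and 0.0782. Actins are close in sequence, so reads between them may have been split. Skeletal muscle markers were present in 2 of 6 cases, Des (6.49 ± 0.427) and Acta1 (2.22 ± 0.314). In the neural list Map2 (40.4 ± 3.47) and Tubb3 (6.12 ± 0.677) were present, and Rbfox3 and Snap25 had no read. Of 4 tendon markers Mkx and Scx were present, and Thbs4 and Tnmd had no read.

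Receptors through which osteoblasts are instructed were present in 26 of 31 cases (83.9%, against 52.3% of protein-coding rows), with a list median of 90.2. Fgfr1 had 671, 691 and 708 and Fgfr2 377, 390 and 380. Tgfbr2 had 339 ± 6.02, Thra, the thyroid hormone receptor, 292 ± 0.496 and Pdgfrb 292 ± 5.88. Pth1r, the receptor of parathyroid hormone, had 121, 130 and 126. The vitamin D receptor gene Vdr had 55.3 ± 2.12, and Bmpr1b no read. Rora had 90.2 ± 2.27, while its relative Rorb had 1, 3 and 0 reads.

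Of 8 factors by which osteoblasts direct osteoclasts, 4 were present, a share of 50% that was close to the 52.3% of protein-coding rows. Sema3a, which encodes a semaphorin that holds back osteoclast formation, had 413, 416 and 401. Cxcl12 (258 ± 6.40) encodes a chemokine, Csf1 (132 ± 4.97) the survival factor of osteoclast precursors and Tnfrsf11b (46.5 ± 2.34) osteoprotegerin, the decoy receptor of RANKL. Tnfsf11, the gene of RANKL itself, had no read. Il6 and Il11 had means of 0.208 and 0.491, and Ccl2, at 0.730, 1.35 and 1.24, crossed the threshold in 2 libraries.

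Genes used by all cells were nearly all present, at levels that differed between genes. All 37 cytoskeleton genes, all 19 translation factors found in the table and all 25 cell cycle genes were present. Of 88 ribosomal protein rows 82 were (93.2%), against 52.3% of protein-coding rows. The highest ribosomal proteins were Rpl4 (1114 ± 28.0), Rpl32 (1016 ± 17.8), Rpl13a (893 ± 23.6), Rps20 (858 ± 13.7) and Rpl8 (818 ± 10.8). Cell cycle genes were led by Ccnd1 (392 ± 12.8), followed by Top2a (265 ± 2.17), the inhibitor genes Cdkn1a (242 ± 2.06) and Cdkn1b (212 ± 0.746) and the proliferation marker Mki67 (191 ± 10.9), so transcripts of division and of its inhibitors stood side by side. All 15 glycolysis genes found were present, but the common reference gene Gapdh had 118, 112 and 117 (28.0 per kb of exon) and Pgk1 14.9, 15.7 and 17.3 (7.12), against 131 and 138 per kb for Pkm and Ldha. Both Gapdh and Pgk1 have many processed copies in the mouse genome, and whether reads shared with the copies were dropped was not tested.

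The replicates were close to one another. The median CV was 4.22% over 13358 rows with a mean value of at least 1, where counting alone would give a median of 3.21%. It fell with level, from 13.7% at values of 1 to 3 through 8.24% at 3 to 10, 4.84% at 10 to 30 and 3.03% at 30 to 100 to 1.91% at 100 to 1000 and 1.67% in the 53 rows above. Counting gave 12.2%, 6.68%, 3.75%, 2.27%, 1.28% and 0.417% in the same classes, so beyond a value of 1000 most of the spread was not counting error. The biological coefficient of variation, estimated by edgeR as 1 value for all rows, was 5.03%. It was 3.39% without Tmem158, Mir2137 and Suv420h2 and 3.53% without replicate 3. In the class from 100 to 1000 it was 7.60%, and 2.56% without the uneven rows in that class.

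**Figure D5:**
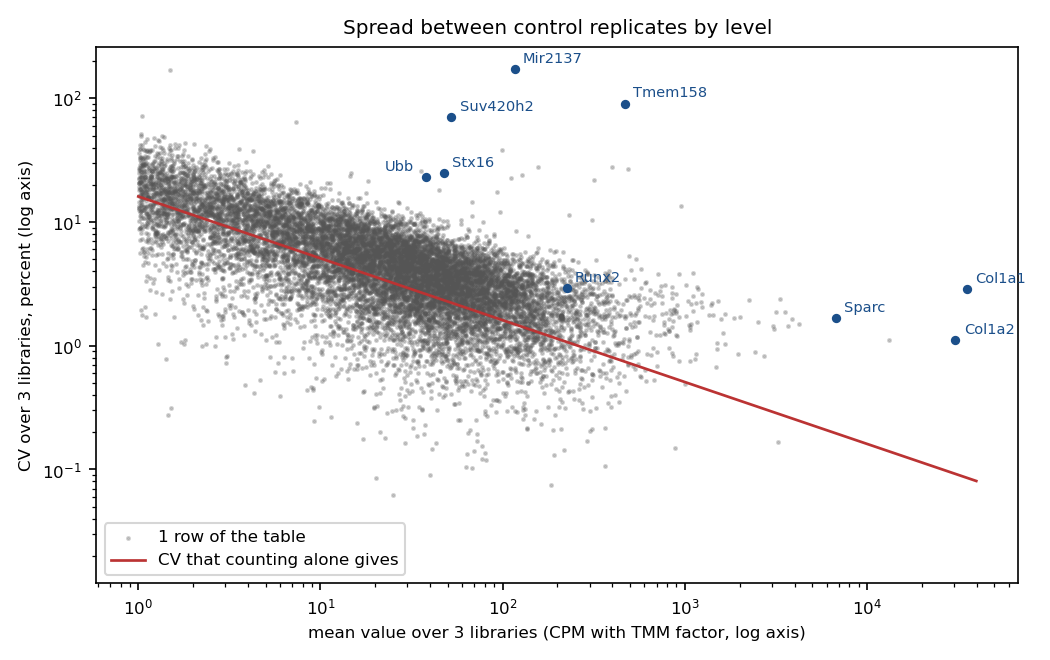
CV over the 3 control libraries (percent) against mean value (CPM with TMM factor), both on log axes, with 1 point per row and the CV that counting alone gives as a line. Most points lie near the line below a value of 100 and above it beyond that; Mir2137, Tmem158 and Suv420h2 stand far above it, while Ubb and Stx16 lie lower.

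Of 8821 named genes whose mean value reached 10, 6709 (76.1%) had a CV under 5%, 214 over 10% and 5 over 20%. Tmem158, a gene first described for its induction by Ras, was the most uneven, with values of 840, 563 and 5.87 (CV 90.5%). These are 31035, 21681 and 237 reads, so replicate 3 stood apart from the others by far more than counting error. Suv420h2, which encodes a histone H4 lysine methyltransferase, ran the other way, with 16.0, 51.6 and 89.3 (591, 1986 and 3610 reads). No other named gene came near these. Stx16 (41.4, 61.0 and 39.9) and the ubiquitin gene Ubb (39.8, 28.5 and 45.8) followed, with CVs of 24.8% and 23.1%. Ifi27l2a, Apbb1ip, Zfp13, Ephb6, Bnip3, Ak4 and Bglap2 were also among the 12 most uneven, at CVs of 20.6% down to 16.2%. The 12 steadiest were N6amt1, Cops2, Nhlrc3, Plekhg3, Gpam, Dad1, Hnrnpk, Ssbp3, Papss2, Abl1, Baz2a and Nabp1. N6amt1 had 24.95, 24.97 and 24.95 (CV 0.0622%), where counting alone would give 3.22%.

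Rows of predicted and small RNA genes were kept out of that order, and among 638 of them 13 had a CV over 20%. The most uneven was Mir2137, with no read in replicates 1 and 2 and 14083 reads in replicate 3 (value 349). The hairpin of this microRNA, on chromosome X, is shown as given by RefSeq for GRCm38.p6 because its row, which is 66 bases long, had reads in 1 library only.
Mir2137: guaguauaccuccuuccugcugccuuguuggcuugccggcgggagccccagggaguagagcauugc

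Of the 12 most uneven rows of this kind, 10 were highest in replicate 1, such as Mir6236 (641, 400 and 428), Gm15662 (526, 344 and 324) and Gm26917 (396, 284 and 269). The 12 were picked by their CV, and the share over all 638 rows is not given, so no pattern is read from this count. Replicate 1 was also the library in which Yam1, AY036118 and Lars2 took the largest share, and whether these rows share a source was not tested. Malat1, a long nuclear RNA, was likewise highest in replicate 1 (1105, 908 and 859), while the matrix share of the remaining reads was 15.6% there against 15.7% and 15.3% in the others.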

How the data were processed

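RNA was measured in MC3T3-E1 cells. The extraction used Trizol with DNase, and the library kit was Encore NGS, per the labels' protocols. Reads were handled with TopHat2 2.0.6 and HTSeq on build mm9, per the submitters' processing notes; annotation, strand, read length and HTSeq options are not given here. The deposited signal per library is CPM of a library size scaled by TMM, a name given per the file headers. Group medians of the count and of the signal, and a ratio with its p-value and q-value, also deposited, are not used here. The table has 43346 rows, of which 27 had symbols turned into dates and 127 shared a symbol. Dividing each library's values by its smallest value above 0 gave whole reads (100% within 0.01), and read numbers are these. Depth was 40772380 to 42603315 reads per library. No library is known to carry molecular identifiers, so limits on rows without reads (3 reads) cover counting error only.

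No test was made: the results are values, means and SDs over 3 libraries, counts and shares. A row was called present at a value of at least 1 in every library. Lengths were to come from RefSeq; GENCODE M21 was used in its place, as the summed length of all exons, matched by symbol for 12769 of the 13089 present rows (97.6%). Because its build differs, no coordinates are given. Pseudogene rows with a mean value of at least 100 were aligned to mitochondrial transcripts with BLAST+ 2.17.0. Dispersion came from edgeR 4.0.16 (common dispersion by estimateGLMCommonDisp, intercept only, mean value of at least 1). DESeq2 1.42.0 gave alternative size factors. The named genes are the 25 highest rows by value and per kb, all lineage regulators and marker genes, up to 5 of the highest members and the members without reads of every other list, and the 12 largest and 12 smallest CVs at a mean of at least 10. Some genes under this rule are not reported here, although counts over lists include them. Genes named besides these were chosen after their values were seen. The members, the lists and this rule were chosen with earlier results of these data known. Alternatives were other thresholds, scalings, lengths and totals, and leaving out each replicate. Work was done in R 4.3.3 and Python 3.11.15 with numpy 2.4.6, pandas 2.3.3 and matplotlib 3.10.9.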

Additional observations from a re-analysis of the deposited data

How the results depend on the processing

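Of 52 alternatives tried, 40 left the value within the spread between replicates or, for a count, a percentage of spread or a dispersion, within 1.5 times, and 12 moved it. The matrix share of 15.5% became 12.4% with Yam1, AY036118 and Lars2 in the total, 7.99% per kb of exon, 9.998% per kb of the principal transcript and 11.4% for collagens alone. The 876 rows that held 50% of the reads became 368 with those 3 rows in the total and 551 per kb of exon. Of the 25 highest rows, 10 remained per kb of exon, 11 per kb of coding sequence and 12 per kb of the principal transcript. The ratio of Col1a1 to Col1a2 fell from 2.20 per kb of exon to 1.10 per kb of coding sequence and 1.05 per kb of the principal transcript. The median CV rose from 4.22% to 7.21% with CPM of the unscaled library total, the scale on which the 3 rows weigh most. Leaving out each replicate gave a matrix share of 15.5% to 15.6%, 872 to 880 rows for 50% of the reads, 13155 to 13197 present genes, 41 lineage regulators, the same 25 highest rows, a ratio of 2.19 to 2.22, a median CV of 3.38% to 3.47% and a biological coefficient of variation of 3.53% to 5.66%. Present genes numbered 12115 to 18375 over the other thresholds and scalings. The principal transcript, the lengths for the type I chains and the dispersion without Tmem158, Mir2137 and Suv420h2 were chosen after seeing the data. No paired analysis was possible because only the control group enters these results.

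Depth limits statements about rows with few reads: below a value of 3 the median CV was 13.7%, close to the 12.2% of counting alone. A gene without reads is not shown to be silent. Values per row cannot separate isoforms or near-identical copies, and 39 rows had read counts identical to another row in all 3 libraries.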

Other observations

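Hox genes, which record the position along the body axis from which a cell came, mostly lay below the threshold of presence or had no read. Of 39 Hox genes 6 were present (15.4%, against 52.3% of protein-coding rows), 20 lay below and 13 had no read. Hoxa10 was the highest, with 14.01, 14.3 and 14.4, followed by Hoxa3 (4.96 ± 0.727), Hoxa5 (3.50 ± 0.196), Hoxa7 (2.58 ± 0.853), Hoxa2 (1.97 ± 0.211) and Hoxb3 (1.45 ± 0.312). Thus 5 of the 6 present genes lie in the Hoxa cluster, and no gene of the Hoxd cluster had more than 1 read. Cells of the skull vault are known to arise largely from tissue without Hox expression, which is background and was not examined here.

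The sum of reads was unevenly spread over the chromosomes. Chromosome 11 held 12.9% ± 0.096 of the reads with 8.42% of the present rows, and chromosome 6 held 9.42% ± 0.019 with 4.79%. Col1a1 on chromosome 11 took 4.11% of these remaining reads by itself, and Col1a2 on chromosome 6 took 3.54%. On chromosome Y 4 rows were present, Ddx3y (139 ± 3.03), Kdm5d (47.4 ± 1.51), Eif2s3y (45.1 ± 1.51) and Uty (30.7 ± 0.917), while Xist, the RNA that silences an X chromosome in female cells, had 4 reads in 1 library and none in the others. Imprinted long RNAs were low, with H19 at 10, 0 and 2 reads and Meg3 without a read.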
